A study of Homo sapiens with 24 samples.

Results

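The 42 genes described here are known to be induced by androgen in prostate cancer (PCa) cells. They were taken by name, as a list of genes known to be targets of androgen signalling, and no measured value enters the rule. The list was nevertheless chosen with earlier results of these data known. All 42 symbols matched 1 gene each among the 60675 genes of the count files. RNA-seq was performed on 24 libraries of the PCa cell lines LNCaP:C4-2 (labelled LNCaP:C42) and 22Rv1, with 3 libraries in each of 8 groups. In every group the cells received siRNA for 48 h in medium with charcoal-stripped serum, which is poor in steroid hormones, and were then given the same siRNA again together with 1 nM R1881 or ethanol vehicle for 72 h. The siRNA was a non-targeting control pool (siSCR) or a pool against METTL3 (siMETTL3), the methyltransferase that writes N6-methyladenosine on RNA. R1881 is a synthetic androgen. Each line is a single established human cell line, and nothing states that the 3 libraries of a group came from separate cultures, so the p-values measure the spread between these libraries, which may be technical.

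Androgens are steroid hormones that act on transcription through hormone response elements in DNA, often at enhancers opened by the pioneer factor FOXA1. Genes switched on in this way in prostate epithelium include proteases, lipid and sugar enzymes, co-chaperones that feed back on hormone signalling, and proteins of membrane traffic and secretion. LNCaP:C4-2 and 22Rv1 are both models of PCa that grows without added androgen, yet they can respond to it.

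In bulk libraries, fewer cells that express a gene and less RNA per cell cannot be told apart. Library totals ran from 15716224 to 21306019 fragments, so that 3 counts, the floor used here for a gene not detected, equal 0.141 to 0.191 CPM, the unit of counts scaled to library size. The 8 luminal prostate markers were present in both lines, and the 3 basal markers stayed at or under 1.03 CPM in sum. Levels below are CPM scaled by edgeR's TMM factors over the 24 libraries, and a log2 fold change is given with its standard error (SE). The quasi-likelihood test of edgeR was used, and a call required both an adjusted p below 0.05 and a fold change of 1.5 or more. Differences between lines in the response, and interactions, needed the adjusted p alone. In their mitochondrial share of counts, 2 libraries of LNCaP:C4-2 and 1 of 22Rv1 stood apart. In LNCaP:C4-2 the siSCR R1881 library 1 held 7.08% against 9.73% and 9.69% in libraries 2 and 3, and the siMETTL3 vehicle library 1 held 9.6% against 6.89% and 7.03%. In 22Rv1 the siMETTL3 vehicle library 1 held 7.45% against 5.27% and 5.04%. Without the first of these, 37 and not 36 members were called for R1881 in siSCR cells, and without the second, 33 and not 32 in siMETTL3 cells. Without the 22Rv1 library, 16 and not 14 members were called for R1881 in 22Rv1 siMETTL3 cells, and 29 and not 31 for the difference in response between lines with siMETTL3.

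METTL3 was lower in the siMETTL3 libraries of both lines. In LNCaP:C4-2 vehicle cells it was at 31.2, 28.6 and 26.5 CPM with siSCR and at 19.9, 19.8 and 17.5 CPM with siMETTL3. In 22Rv1 vehicle cells it was at 46.6, 45.5 and 46.8 CPM with siSCR and at 25.3, 24.1 and 25.4 CPM with siMETTL3. No siMETTL3 library reached the siSCR libraries of its line and treatment. The mean fell by 33.8% and 32.8% in LNCaP:C4-2 (vehicle, R1881) and by 46.1% and 55.5% in 22Rv1, each with p = 0.1 in an exact two-sided permutation test, the smallest p that 3 libraries against 3 can give. In edgeR, METTL3 changed by -0.61 ± 0.11 (SE), adjusted p = 0.0127 in LNCaP:C4-2 vehicle cells and by -0.57 ± 0.11 (SE), adjusted p = 0.0256 with R1881, the latter under the fold required. The call in vehicle cells was lost without any 1 of 4 libraries (siSCR vehicle 1 and 3, siMETTL3 vehicle 2 and 3). The log2 values were then -0.66 to -0.55. With R1881, edgeR gave an adjusted p of 0.0667 to 0.162 without siSCR R1881 library 2 or 3 or any 1 siMETTL3 R1881 library. The log2 values there were -0.58 to -0.52. A replicate block in the edgeR fit gave -0.57, adjusted p = 0.0706. Without siSCR R1881 library 1, METTL3 was called with R1881, at -0.65, adjusted p = 0.00791.

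R1881 raised the known androgen-induced genes in LNCaP:C4-2 as a nearly complete set and in 22Rv1 as a smaller part of it. In LNCaP:C4-2 siSCR cells, 36 of 42 members were called higher and 0 lower, where 7.39% of the 16435 genes tested were called higher and 7.72% lower. All 42 members had every R1881 library above every vehicle library, which held for 20.9% of all genes tested. Their median log2 fold change was 1.91, against -0.03 over all genes. In 22Rv1 siSCR cells, 40 members passed the filter on low counts, 14 were called higher and 1 lower, where 4.19% of 17865 genes were called higher and 9.64% lower. The median over these 40 members was 0.43, against 0.002 over all genes. Without the fold requirement the 22Rv1 counts were 22 higher and 2 lower, where 16.6% and 16.5% of all genes were called, and the LNCaP:C4-2 counts were 40 and 0, where 12.7% and 12.1% were.

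The mitochondrial share was lower with R1881 in the 22Rv1 siSCR libraries, at 4.96% to 5.28% against 6.12% to 6.89% with vehicle, and its part in the result was not tested.

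Summed over the members, the TMM-scaled CPM rose from 3489 ± 75.5 CPM to 13375 ± 859 CPM (mean ± SD of summed CPM, n = 3) in LNCaP:C4-2 siSCR cells, a ratio of 3.83. Without that scaling the members held 0.335% to 0.351% of all fragments with vehicle and 1.15% to 1.26% with R1881. In 22Rv1 siSCR cells the sum rose from 2665 ± 184 to 5357 ± 187 CPM, a ratio of 2.01, and FKBP5 alone made up 61.9% of the gain. Without the scaling the shares of fragments were 0.282% to 0.305% and 0.547% to 0.573%. Per length (RPKM, here the CPM divided by exon length in kilobases), the highest members with R1881 in LNCaP:C4-2 were ABHD2 at 304 ± 13.4 RPKM, UAP1 at 187 ± 8.46 RPKM and TMPRSS2 at 155 ± 41.5 RPKM. In 22Rv1 they were FKBP5 at 174 ± 6.71 RPKM, DBI at 95.5 ± 6.55 RPKM and ZBTB10 at 94.7 ± 3.39 RPKM, and the last 2 did not differ beyond their spread.

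**Figure D1:**
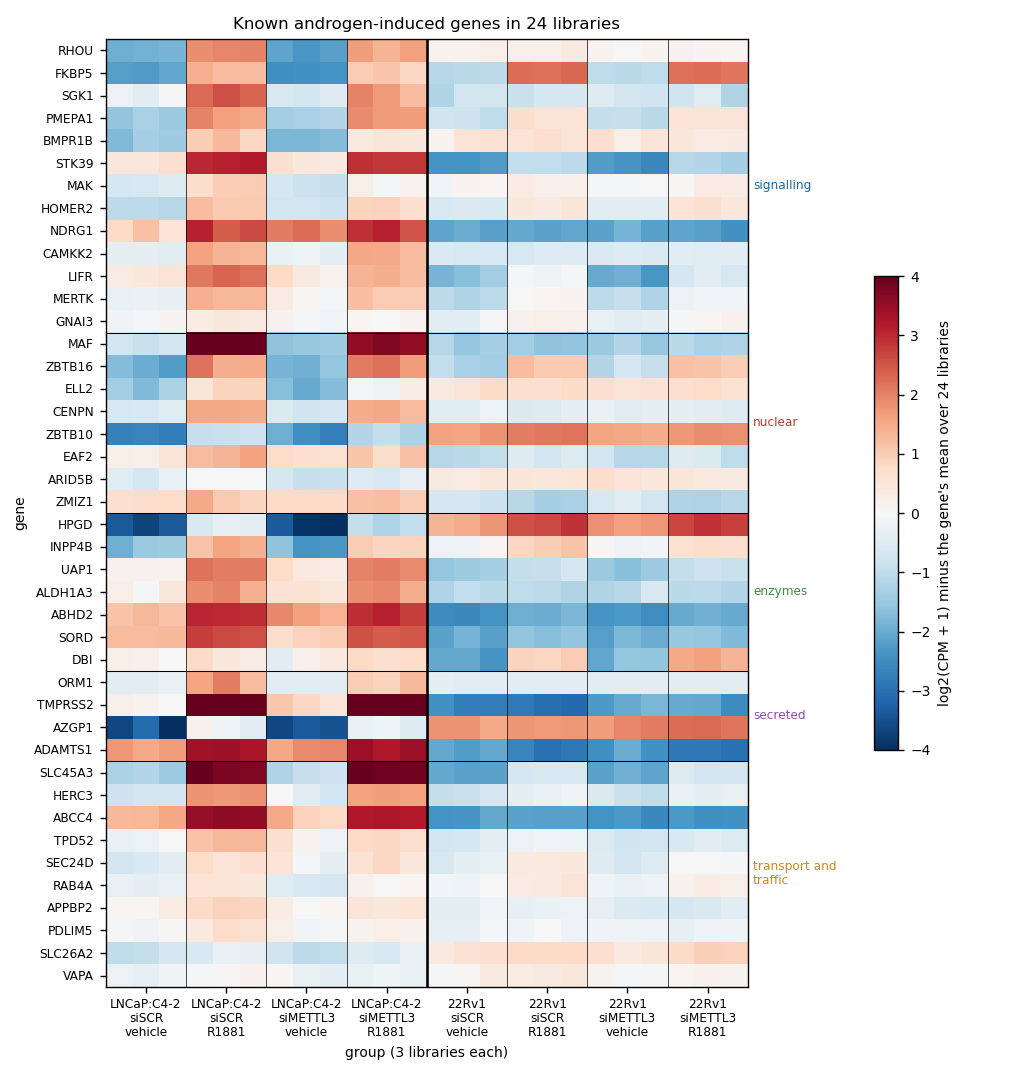
Heat map of the 42 androgen-induced genes (rows, by role) in the 24 libraries (columns, 3 per group). Colour is log2(CPM + 1) minus the gene's mean over the 24 libraries, with the scale ending at 4 units on either side of 0. In LNCaP:C4-2 (left of the thick line) the R1881 columns are higher than the vehicle columns for all 42 genes with siSCR, while in 22Rv1 many rows change little between vehicle and R1881.

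Among the 13 receptors, kinases and signalling proteins, 12 were called higher in LNCaP:C4-2 siSCR cells and 6 in 22Rv1 siSCR cells. FKBP5 (ENSG00000096060, GRCh38 chr6:35573585-35728583), a co-chaperone of steroid receptors, was at 83.8, 80.7 and 90.9 CPM with vehicle and 1052, 917 and 925 CPM with R1881 in LNCaP:C4-2. In 22Rv1 it was at 177, 184 and 189 CPM with vehicle and 1835, 1788 and 1928 CPM with R1881. All R1881 libraries lay far above all vehicle libraries in both lines. The log2 fold change was 3.49 ± 0.10 (SE), adjusted p = 1.34e-12 in LNCaP:C4-2 and 3.33 ± 0.07 (SE), adjusted p = 2.26e-19 in 22Rv1. The difference between lines, taken as 22Rv1 minus LNCaP:C4-2 here and below, was -0.17 ± 0.11 with a 95% interval of -0.39 to 0.06 (adjusted p = 0.324).

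LIFR (ENSG00000113594, chr5:38474963-38608354), the receptor subunit for leukaemia inhibitory factor, also responded in both lines. In LNCaP:C4-2 it went from 39.3, 41.3 and 44.2 CPM to 135, 159.7 and 147 CPM. In 22Rv1 it went from 7.8, 8.84 and 11.2 CPM to 30.1, 28.1 and 29.7 CPM. The groups did not overlap in either line, and the 22Rv1 levels stayed below those of LNCaP:C4-2 with either treatment. The log2 fold changes were 1.82 ± 0.14 (SE), adjusted p = 1.85e-07 and 1.65 ± 0.13 (SE), adjusted p = 1.34e-09, and the difference between lines of -0.17 ± 0.20 had an interval of -0.59 to 0.26 (adjusted p = 0.649).

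A further 4 signalling genes were called higher in both lines. MERTK, a receptor tyrosine kinase that takes part in the clearance of dead cells, had log2 fold changes of 1.69 and 1.24, in that order LNCaP:C4-2 and 22Rv1. STK39, a kinase that controls cation-chloride cotransporters, had 2.59 and 1.45. PMEPA1, a membrane protein that dampens TGF-beta signalling, had 3.23 and 1.51. HOMER2, a scaffold protein, had 2.22 and 1.04. For all 4, the increase was smaller in 22Rv1, from -0.46 ± 0.15 (adjusted p = 0.0344) for MERTK to -1.72 ± 0.15 (adjusted p = 2.88e-09) for PMEPA1. The MERTK difference was lost without LNCaP:C4-2 siSCR vehicle library 3, 22Rv1 siSCR vehicle library 1 or 22Rv1 siSCR R1881 library 1.

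Of the remaining signalling genes, 6 were called higher in LNCaP:C4-2 and not in 22Rv1. RHOU, an atypical small GTPase, went from 27.4, 29.1 and 29.5 CPM to 402, 426 and 436 CPM in LNCaP:C4-2, and in 22Rv1 from 122, 121 and 133 CPM to 130.0, 129.8 and 142 CPM. Its vehicle level in 22Rv1 was thus above that of LNCaP:C4-2 and changed by 0.09 ± 0.07 (adjusted p = 0.344), a difference in response of -3.78 ± 0.12 (SE), adjusted p = 8.56e-18. SGK1, a kinase also induced by serum and glucocorticoids, had 3.26 in LNCaP:C4-2 and 0.32 ± 0.46 (adjusted p = 0.63) in 22Rv1, where its siSCR libraries ran from 0.26 to 0.851 CPM. BMPR1B, a receptor for bone morphogenetic proteins, had 3.02 and 0.15 ± 0.14 (adjusted p = 0.456). CAMKK2, the kinase that activates AMPK, had 1.83 and 0.04 ± 0.07 (adjusted p = 0.708). NDRG1, a stress-responsive cytoplasmic protein, had 1.88 in LNCaP:C4-2, and in 22Rv1 its libraries ran from 27.1 to 30.7 CPM over vehicle and R1881. MAK, a kinase first described in male germ cells, had 2.33 and 0.32 ± 0.22 (adjusted p = 0.267). Each of these 6 differences between lines passed the test, at -3.78 to -1.79. GNAI3, an inhibitory G protein subunit, changed by 0.40 ± 0.10 and 0.50 ± 0.09, under the fold required in both lines.

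To show the DNA near the start sites of these genes, promoter sequences from RefSeq (GRCh38.p14, 250 bases before to 50 after a start) were searched for the hormone response half-site AGAACA on either strand, for the inverted repeat of AGAACA and TGTTCT separated by 3 bases with at most 2 mismatches, and for the forkhead core GTAAACA on either strand. A half-site counted again where it lay inside an inverted repeat. Promoters were found for 32 members with 57 start sites. They were not matched for ADAMTS1, ELL2, NDRG1, SEC24D, SORD, TMPRSS2, TPD52, ZBTB10, ZBTB16 and ZMIZ1. The half-site occurred in 6 of the 57 promoters (10.5%), against 14.8% of all 35116 promoters. The inverted repeat occurred in 1 (1.75%, against 1.41%) and the forkhead core in 2 (3.51%, against 3.42%). Binding of factors to DNA was not measured here, near a start or far from it. The 6 windows with a half-site are printed, with the match in capitals, and belong to 5 of the signalling genes. In the PMEPA1 window at chr20 the capitals mark both arms of the inverted repeat with 2 mismatches, of which the second arm is the half-site.
PMEPA1, chr20:57710794-57710822, minus strand: ttaaaccTGAAGAatgTGTTCTtgtagca
PMEPA1, chr20:57711438-57711457, minus strand: cttctccAGAACAagcctcc
FKBP5, chr6:35728571-35728590, minus strand: ctaccccAGAACAaactcct
LIFR, chr5:38557463-38557482, minus strand: gccgaagAGAACAccatcaa
SGK1, chr6:134177844-134177863, minus strand: tcataacAGAACAgggatag
STK39, chr2:168247695-168247714, minus strand: gaggcggAGAACAgcgcgcg

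The LIFR promoter also held the forkhead core, at chr5:38557431-38557451: atacagcGTAAACAtcttcag

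The other promoter with the forkhead core was that of ARID5B, at chr10:62049283-62049303 on the plus strand. A match of letters describes the window and is no measurement of binding.

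Among the 8 transcription and nuclear proteins, 6 were called higher in LNCaP:C4-2 siSCR cells and 2 in 22Rv1 siSCR cells. MAF (ENSG00000178573, chr16:79585843-79600714), a basic leucine zipper transcription factor, had the largest fitted fold change of the members above the floor. It went from 1.71, 1.5 and 1.74 CPM to 88.1, 78.2 and 72.9 CPM in LNCaP:C4-2. In 22Rv1 it was at 1.09, 0.589 and 0.818 CPM with vehicle and 0.754, 0.501 and 0.532 CPM with R1881. The LNCaP:C4-2 groups were far apart, while the 22Rv1 groups overlapped at a level of 9 to 21 counts per library. The log2 fold change was 5.58 ± 0.14 (SE), adjusted p = 1.34e-12 in LNCaP:C4-2 and -0.49 ± 0.38 (SE), adjusted p = 0.348 in 22Rv1, and the difference between lines was -6.07 ± 0.35 (SE), adjusted p = 9.21e-13.

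ZBTB16 (ENSG00000109906, chr11:114059593-114250676), a zinc finger repressor also named PLZF, responded in both lines. In LNCaP:C4-2 it went from 4.69, 3.81 and 3.07 CPM to 85.1, 50.6 and 51.6 CPM. In 22Rv1 it went from 8.48, 6.7 and 6.22 CPM to 44.9, 38.1 and 38 CPM. The first LNCaP:C4-2 R1881 library, one of those that stood apart, was the highest. The log2 fold changes were 4.0 ± 0.23 (SE), adjusted p = 5.19e-09 and 2.49 ± 0.13 (SE), adjusted p = 2.95e-12, with a difference of -1.51 ± 0.28 (SE), adjusted p = 0.000384. EAF2, a partner of ELL elongation factors, was the other nuclear gene called in both lines, at 1.34 and 1.14 ± 0.42 (adjusted p = 0.0407). Its 22Rv1 libraries held 7 to 21 counts, and that call was lost with DESeq2 and without any 1 of 4 libraries (vehicle 1 and 2, R1881 1 and 3).

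ELL2, an elongation factor of RNA polymerase, went from 37.8, 29.3 and 41 CPM to 143, 186 and 189 CPM in LNCaP:C4-2. In 22Rv1 it was already at 133, 143 and 173 CPM with vehicle and at 159, 163 and 171 CPM with R1881. The 22Rv1 groups overlapped, and the range of their vehicle libraries overlapped that of the LNCaP:C4-2 R1881 libraries. CENPN, a centromere protein, had log2 fold changes of 2.11 and -0.11 ± 0.08 (adjusted p = 0.357). ZBTB10, a zinc finger protein, had 1.83 and 0.42 ± 0.07 (adjusted p = 4.7e-05), the latter under the fold required. ARID5B, a DNA-binding cofactor of a histone demethylase, had 0.50 ± 0.13 and 0.08 ± 0.08, and was not called in either line. ZMIZ1, a transcriptional coregulator, passed the adjusted p but not the fold in both lines, with opposite signs, at 0.47 ± 0.13 and -0.54 ± 0.10. The difference for ZMIZ1 was -1.01 ± 0.17 (SE), adjusted p = 9.71e-05.

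Among the 7 metabolic genes, 6 were called higher in LNCaP:C4-2 siSCR cells, and 3 of the 6 that passed the filter were called higher in 22Rv1. DBI (ENSG00000155368, chr2:119366921-119372560), the acyl-CoA-binding protein, was the only member called in 22Rv1 and not in LNCaP:C4-2. In 22Rv1 it went from 29.9, 29.6 and 24 CPM to 236, 225 and 258 CPM. In LNCaP:C4-2 it was at 151, 145 and 126 CPM with vehicle and 216, 169 and 154 CPM with R1881. The 22Rv1 groups were far apart, from a lower start, while the LNCaP:C4-2 groups lay close to each other without overlap. The log2 fold change was 3.10 ± 0.12 (SE), adjusted p = 2.02e-14 in 22Rv1 and 0.35 ± 0.17 (SE), adjusted p = 0.151 in LNCaP:C4-2. The difference of 2.75 ± 0.23 (SE), adjusted p = 1.08e-09 was the only one of the 33 called in which the response was larger in 22Rv1.

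HPGD (ENSG00000164120, chr4:174490177-174523154), which degrades prostaglandins, was called in both lines from very different levels. It went from 1.22, 0.752 and 1.22 CPM to 13.7, 17.2 and 16.7 CPM in LNCaP:C4-2 and from 57.7, 62 and 75.8 CPM to 131, 140.2 and 167 CPM in 22Rv1. Every 22Rv1 vehicle library was above every LNCaP:C4-2 R1881 library. INPP4B, a phosphatase of phosphoinositides, had log2 fold changes of 3.32 and 1.17. ABHD2, a serine hydrolase, went from 880.3, 992 and 870.4 CPM to 3304, 3102 and 3040.3 CPM in LNCaP:C4-2 and had 0.57 ± 0.08 in 22Rv1. That last value missed the fold required. The same held in 22Rv1 for UAP1, which makes UDP-N-acetylglucosamine, and for SORD, which turns sorbitol into fructose. UAP1 had 1.94 in LNCaP:C4-2 and 0.58 ± 0.09 in 22Rv1, and SORD had 1.38 and 0.45 ± 0.11. ALDH1A3, which makes retinoic acid, had 1.88 in LNCaP:C4-2 and ran from 0.26 to 0.482 CPM in the 22Rv1 siSCR libraries. Of its exon bases, 28.6% are shared with other genes, and counts were made without strand.

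All 4 genes of secreted proteins and membrane proteases were called higher in LNCaP:C4-2, and none of the 3 tested in 22Rv1 was called higher. TMPRSS2 (ENSG00000184012, chr21:41464551-41531116), the transmembrane serine protease whose androgen-driven promoter is fused to ERG in many prostate tumours, went from 52.4, 49.8 and 44.9 CPM to 1241, 810.3 and 794 CPM in LNCaP:C4-2. In 22Rv1 it was at 7.54, 5.73 and 5.67 CPM with vehicle and 5.49, 4.62 and 4.31 CPM with R1881. The LNCaP:C4-2 groups were more than an order of magnitude apart, with R1881 library 1 the highest, and the 22Rv1 libraries were low with either treatment. The log2 fold change was 4.26 ± 0.23 (SE), adjusted p = 2.46e-09 in LNCaP:C4-2 and -0.40 ± 0.18 (SE), adjusted p = 0.1 in 22Rv1, a difference of -4.67 ± 0.32 (SE), adjusted p = 2.93e-11.

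ADAMTS1 (ENSG00000154734, chr21:26835747-26845409), a secreted metalloprotease, was called with opposite signs in the 2 lines. In LNCaP:C4-2 it went from 111, 96 and 108 CPM to 349.7, 358 and 324 CPM. In 22Rv1 it went from 7.23, 6.16 and 7.26 CPM to 4.42, 3.34 and 3.72 CPM. Every R1881 library was above every vehicle library in the first line and below in the second. The log2 fold changes were 1.70 ± 0.12 (SE), adjusted p = 3.11e-08 and -0.85 ± 0.17 (SE), adjusted p = 0.000708, and the difference was -2.55 ± 0.20 (SE), adjusted p = 2.75e-10. AZGP1, a secreted glycoprotein linked to lipid breakdown, went from 2.21, 3.76 and 1.45 CPM to 44.4, 34.2 and 29.1 CPM in LNCaP:C4-2, while in 22Rv1 it was at 136, 138 and 113 CPM and 134, 128 and 132 CPM. The 22Rv1 libraries were high with either treatment, and their response of 0.02 ± 0.09 (adjusted p = 0.896) differed from that of LNCaP:C4-2 by -3.82 ± 0.25 (SE), adjusted p = 1.41e-11. ORM1, an acute-phase plasma protein, held 0, 0 and 2 counts with vehicle and 52, 72 and 42 counts with R1881 in LNCaP:C4-2. Against the floor of 3 counts per library this is an increase of at least 19.9-fold, and in the 12 libraries of 22Rv1 at most 1 count was found. ORM1 has a close copy, ORM2, and how fragments were split between them is uncertain.

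Among the 10 genes of transport, membrane traffic, the cytoskeleton and ubiquitin ligases, 8 were called higher in LNCaP:C4-2 siSCR cells and 3 in 22Rv1 siSCR cells. SLC45A3 (ENSG00000158715, chr1:205657851-205680459), a prostate transporter also named prostein, went from 13.1, 13.9 and 11.4 CPM to 607, 459.8 and 446 CPM in LNCaP:C4-2. In 22Rv1 it went from 7.13, 6.7 and 6.6 CPM to 19.6, 20.5 and 20.8 CPM. The groups did not overlap in either line, and the R1881 level of 22Rv1 stayed far below that of LNCaP:C4-2. The log2 fold changes were 5.29 ± 0.15 (SE), adjusted p = 1.34e-12 and 1.57 ± 0.11 (SE), adjusted p = 4.57e-10, with a difference of -3.72 ± 0.17 (SE), adjusted p = 2.26e-14.

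HERC3, of the HECT and RCC1-like ubiquitin ligases, had 2.61 in LNCaP:C4-2 and 0.61 ± 0.11 in 22Rv1, just past the fold required. The latter call was lost without 22Rv1 siSCR vehicle library 1 or siSCR R1881 library 3. SEC24D, a coat protein of vesicles that leave the endoplasmic reticulum, had 1.24 and 0.81, and its difference between lines of -0.44 ± 0.21 had an interval of -0.90 to 0.01 (adjusted p = 0.17). ABCC4, an efflux pump for organic anions, went from 186, 188 and 218 CPM to 850.5, 909 and 886 CPM in LNCaP:C4-2 and had 0.10 ± 0.11 (adjusted p = 0.512) in 22Rv1. TPD52, a membrane traffic protein overexpressed in PCa, had 1.43 and 0.43 ± 0.09. RAB4A, a GTPase of recycling endosomes, had 0.83 and 0.49 ± 0.07, with 28.9% of its exon bases shared with other genes. APPBP2, which binds the amyloid precursor protein, had 0.69 and 0.01 ± 0.09. PDLIM5, a PDZ and LIM domain protein at actin, had 0.64 and 0.10 ± 0.09. Under library size scaling alone, which moved the median of all genes in LNCaP:C4-2 to -0.15, the calls of APPBP2 and PDLIM5 in that line were lost, and that of PDLIM5 was also lost without siSCR R1881 library 2. VAPA, a membrane anchor of the endoplasmic reticulum, and SLC26A2, a sulfate transporter, were not called in either line, with 0.28 ± 0.11 and 0.49 ± 0.14 in LNCaP:C4-2.

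**Figure D2:**
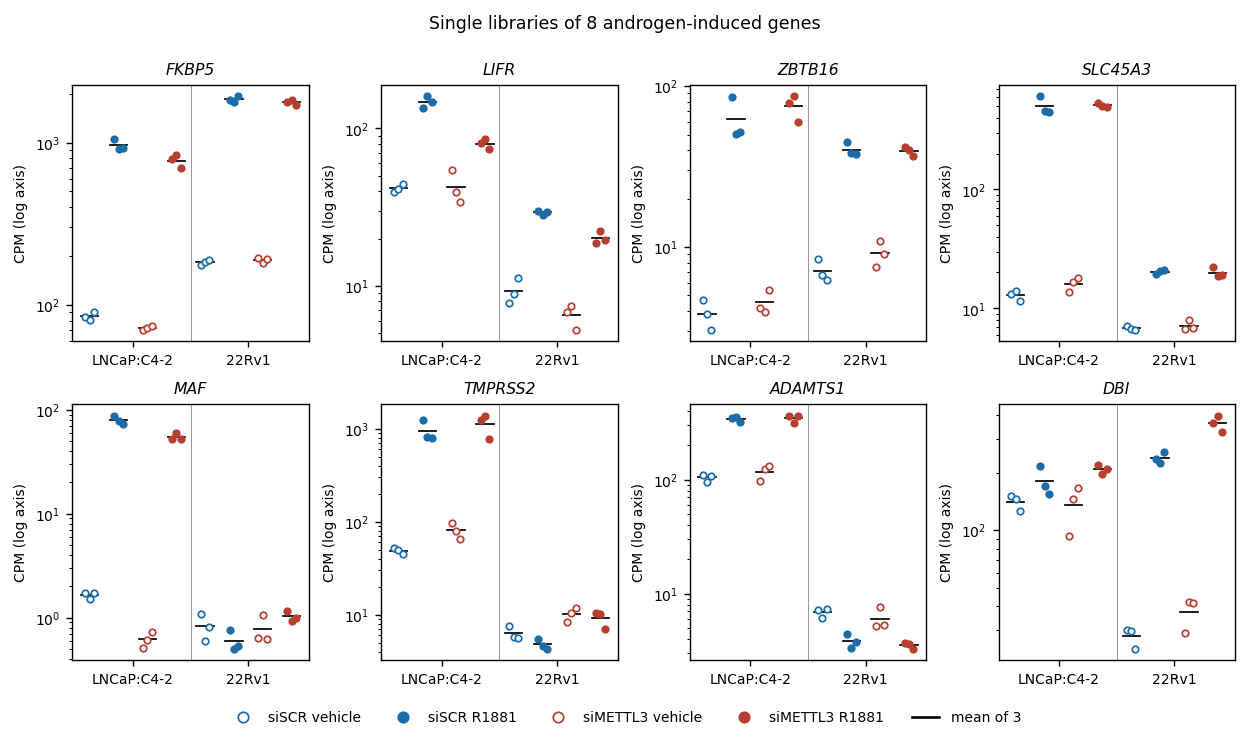
CPM on a log axis in every library for 8 of the genes, with LNCaP:C4-2 left and 22Rv1 right of the grey line; points are single libraries (blue siSCR, red siMETTL3; open vehicle, filled R1881) and bars are means of 3. FKBP5, LIFR, ZBTB16 and SLC45A3 rise in both lines, MAF and TMPRSS2 rise in LNCaP:C4-2, ADAMTS1 rises in LNCaP:C4-2 and falls in 22Rv1, and DBI rises mainly in 22Rv1.

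The response was then compared between lines gene by gene. With siSCR, 33 of 42 members differed between lines, where 16.8% of the 19437 genes tested differed. Of these, 32 had the smaller response in 22Rv1 and 1 the larger, where 9.02% and 7.78% of all genes did, and the median difference over the 42 members was -1.46, against 0.03 over all genes. The largest differences above the floor were those of MAF (-6.07), TMPRSS2 (-4.67), AZGP1 (-3.82), RHOU (-3.78) and SLC45A3 (-3.72). The smaller response in 22Rv1 was found, by role, for 10 of 13 signalling genes, 6 of 8 nuclear proteins and 6 of 7 metabolic genes. It was also found for 3 of 4 secreted proteins and membrane proteases and 7 of 10 transport genes. ALDH1A3 and ORM1 failed the filter on low counts in 22Rv1 and entered the joint fit, used here and for levels, through LNCaP:C4-2 alone. ALDH1A3 is counted among those called, so its difference is no test of a response in 22Rv1. A difference was not detected for FKBP5, LIFR, EAF2, GNAI3, SLC26A2, VAPA, SEC24D, ARID5B and ORM1, and the 95% intervals were -0.19 to 0.39 for GNAI3, -0.37 to 0.25 for VAPA, -0.63 to 0.08 for SLC26A2 and -0.73 to -0.11 for ARID5B, and the wider -1.17 to 0.76 for EAF2. ARID5B, at an adjusted p of 0.0505, lay close to the threshold. It was called as different with DESeq2, RLE factors and the replicate block and in 7 of the 12 fits that left out 1 library, with adjusted p from 0.0109 to 0.133 in those 12. With siMETTL3, 31 members differed, where 15.3% of all genes did, 29 with the smaller and 2 with the larger response in 22Rv1 (6.83% and 8.45% of all genes), and the second of those, LIFR, had 0.71 ± 0.21 (SE), adjusted p = 0.0193. The LIFR call was lost without any 1 of 4 libraries (LNCaP:C4-2 siMETTL3 vehicle 1 and R1881 1, 22Rv1 siMETTL3 vehicle 3 and R1881 2). The RAB4A difference with siSCR was lost without LNCaP:C4-2 siSCR vehicle library 2 or 22Rv1 siSCR R1881 library 1 or 2, and that of ALDH1A3 without 22Rv1 siSCR vehicle library 2. Line and any handling particular to each line cannot be told apart.

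**Figure D3:**
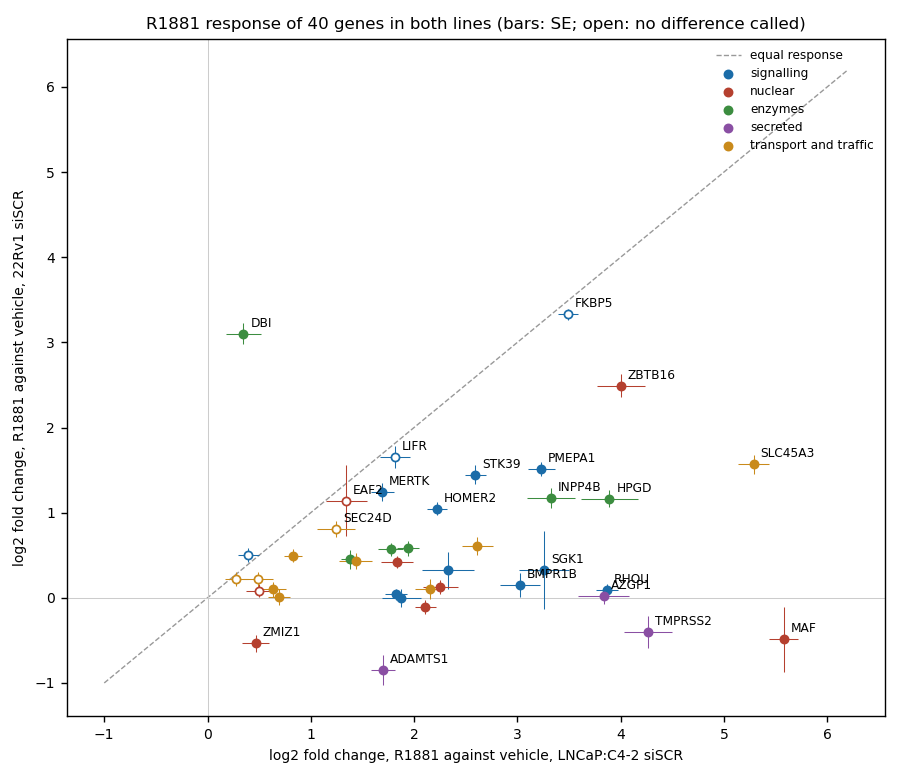
Log2 fold change of R1881 against vehicle with siSCR in LNCaP:C4-2 (horizontal axis) and 22Rv1 (vertical axis) for the 40 genes tested in both lines, coloured by role, with bars of 1 SE; open points had no difference between lines called and the dashed line is an equal response. Most genes lie below the line, FKBP5 lies near it and DBI above it.

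Starting levels also differed between the lines. Between the vehicle siSCR groups, 30 of 42 members differed in level, 13 higher and 17 lower in 22Rv1, where 59.2% of all genes were called, 31.2% higher and 27.9% lower. Of the 13 that started higher in 22Rv1, 11 were called higher with R1881 in LNCaP:C4-2 and 5 in 22Rv1. Of the 17 that started lower, 15 were called in LNCaP:C4-2, and 6 of the 16 tested were called in 22Rv1. Of the 12 not called as different in level, 10 were called in LNCaP:C4-2, and 3 of the 11 tested in 22Rv1. Over all members, 36 of 42 and 14 of 40 were called higher, where 7.39% and 4.19% of all genes were. Calls do not show the size of a response, and the part of the starting level in the response was not tested. HPGD (5.94), AZGP1 (5.69) and ZBTB10 (4.40) had the largest log2 differences in level upward in 22Rv1. ADAMTS1 (-3.93), ABCC4 (-3.74) and ABHD2 (-3.72) had the largest downward. With R1881, 33 members differed in level, where 60.1% of all genes were called, and the split was 5 higher and 28 lower in 22Rv1, against 32.6% and 27.5% of all genes. TMPRSS2 then differed by -7.62 ± 0.25 (SE), adjusted p = 1.07e-19 and MAF by -7.05 ± 0.18 (SE), adjusted p = 3.27e-22. The members higher in 22Rv1 with R1881 were AZGP1, FKBP5, HPGD, SLC26A2 and ZBTB10.

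FOXA1, the glucocorticoid receptor gene and a neuroendocrine marker were read in the same libraries. The log2 difference in vehicle level of FOXA1, 22Rv1 minus LNCaP:C4-2, was -0.46 ± 0.07 (SE), adjusted p = 1.18e-06, under the fold required. The glucocorticoid receptor gene NR3C1 was at 0.387, 0.215 and 0.289 CPM in LNCaP:C4-2 and at 51.7, 58.8 and 54.4 CPM in 22Rv1 with vehicle, a difference of 7.50 ± 0.19 (SE), adjusted p = 2.87e-22. The neuroendocrine marker SYP was at 77.8 to 120 CPM in 22Rv1 and at 0.893 to 2.51 CPM in LNCaP:C4-2, while CHGA and INSM1 stayed at or under 1.3 CPM in both. The part of these genes in the responses was not tested.

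Fewer members were called for METTL3 depletion than for R1881. In LNCaP:C4-2 vehicle cells, 2 of 42 members were called, where 1.2% of all genes were. MAF fell from 1.71, 1.5 and 1.74 CPM with siSCR to 0.51, 0.614 and 0.728 CPM with siMETTL3 (-1.41 ± 0.22 (SE), adjusted p = 0.00977), at 8 to 31 counts per library. NDRG1 rose from 219, 285 and 183 CPM to 529, 592 and 458 CPM (1.18 ± 0.19 (SE), adjusted p = 0.00977). The siRNA groups did not overlap for either gene. Both calls were lost without siSCR vehicle library 1 or 3 or siMETTL3 vehicle library 2, with adjusted p up to 0.0671 for MAF and 0.0722 for NDRG1. SORD changed by -0.41 ± 0.09, past the adjusted p and under the fold required.

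In LNCaP:C4-2 cells with R1881, 3 of 42 members were called, all lower with siMETTL3, where 0.7% of all genes were called. LIFR went from 135, 159.7 and 147 CPM with siSCR to 80.4, 85.3 and 74.2 CPM with siMETTL3 (-0.88 ± 0.14 (SE), adjusted p = 0.0115). ELL2 went from 143, 186 and 189 CPM to 94.6, 87.1 and 124 CPM (-0.76 ± 0.16 (SE), adjusted p = 0.0372). MAK went from 3.55, 4.52 and 4.65 CPM to 2.33, 1.76 and 2.13 CPM (-1.03 ± 0.22 (SE), adjusted p = 0.0454). The siRNA groups did not overlap for any of these 3 genes, with the siSCR libraries above. All 3 calls were lost without siSCR R1881 library 2 or 3 or siMETTL3 R1881 library 1 or 2, and that of MAK also without siMETTL3 R1881 library 3, with adjusted p up to 0.0921 for LIFR, 0.219 for ELL2 and 0.24 for MAK. In the fit with a replicate block the MAK call was lost as well (adjusted p = 0.0931). Without siSCR R1881 library 1, whose mitochondrial share stood apart, 7 members were called, namely these 3 and BMPR1B, HPGD, INPP4B and SGK1.

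Across the set, 34 of 42 members were below 0 in this comparison, where 49.5% of all genes were, and the median was -0.27, against 0.004. Of 62 other androgen-response genes, described below, 41 were below 0, with a median of -0.11. For 26 members all 3 siMETTL3 libraries lay below all 3 siSCR libraries, which held for 18.1% of all genes, and for 0 members they lay above, which held for 15.3% of all genes. MAF (-0.53 ± 0.10 (SE), adjusted p = 0.0301) and RAB4A (-0.42 ± 0.09 (SE), adjusted p = 0.0372) passed the adjusted p and not the fold. FKBP5 (-0.31 ± 0.09, adjusted p = 0.0715), RHOU (-0.35 ± 0.10, adjusted p = 0.0663) and ABCC4 (-0.34 ± 0.14, adjusted p = 0.135) were among those with lower values that did not pass. The mitochondrial share was also lower in these siMETTL3 libraries, at 6.46% to 7.05%, than in the siSCR libraries, at 7.08% to 9.73%, and its part in the result was not tested.

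**Figure D4:**
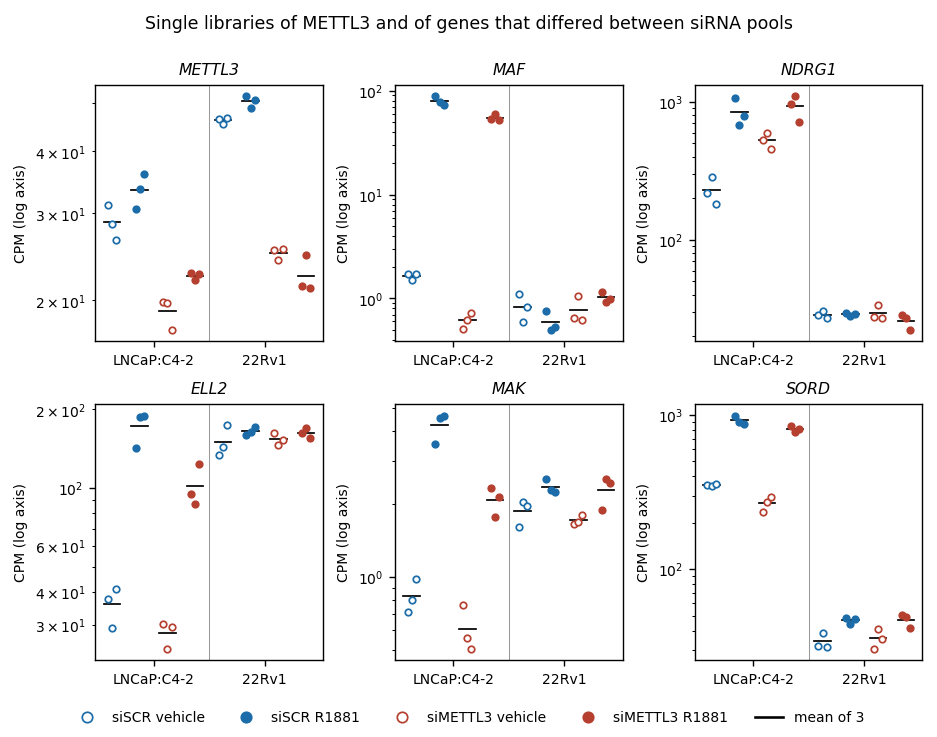
CPM on a log axis in every library for METTL3 and 5 androgen-induced genes, with LNCaP:C4-2 left and 22Rv1 right of the grey line; points are single libraries (blue siSCR, red siMETTL3; open vehicle, filled R1881) and bars are means of 3. The siMETTL3 libraries lie below the siSCR libraries of the same treatment for METTL3 in both lines, and in LNCaP:C4-2 for MAF with either treatment and for ELL2 and MAK with R1881, while NDRG1 is higher with siMETTL3 in vehicle cells.

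In 22Rv1 vehicle cells, 0 members were called in the main edgeR fit, where 0.202% of all genes were. At an unadjusted p under 0.05 there were 10 of 40 members and 8 of the 62 other androgen-response genes described below. The share of all genes at that p is not reported here. DESeq2 and the edgeR fit with no filter on low counts each called 1, TMPRSS2. Over all genes DESeq2 called 43, where the main fit called 36. With the filter, edgeR called 2 without siSCR vehicle library 1 (LIFR and TMPRSS2). It also called 2 without siMETTL3 vehicle library 1, whose mitochondrial share stood apart (DBI and TMPRSS2). In 22Rv1 cells with R1881, TMPRSS2 was the only member called, where 3.29% of all genes were. It went from 5.49, 4.62 and 4.31 CPM with siSCR to 10.4, 10.2 and 7.04 CPM with siMETTL3 (0.92 ± 0.18 (SE), adjusted p = 0.00302), and the groups did not overlap. The mitochondrial share was lower in these siMETTL3 libraries, at 3.93% to 4.24%, than in the siSCR libraries, at 4.96% to 5.28%, and its part in the result was not tested. In LNCaP:C4-2 vehicle cells TMPRSS2 went from 52.4, 49.8 and 44.9 CPM with siSCR to 96.5, 80.3 and 64.9 CPM with siMETTL3 without overlap (0.70 ± 0.21, adjusted p = 0.105). The main edgeR fit did not call TMPRSS2 there. It was called with DESeq2 and in the edgeR fits with no filter on low counts or with a replicate block. In LNCaP:C4-2 cells with R1881 the TMPRSS2 groups overlapped (0.25 ± 0.20, adjusted p = 0.411). A further 9 members passed the adjusted p and not the fold in 22Rv1, 2 higher and 7 lower, where, with the fold left out, 8.93% of all genes were called higher and 7.28% lower. DBI, at 0.58 ± 0.11 (SE), adjusted p = 0.0024, just missed the fold and was called with DESeq2 or without siSCR R1881 library 3 or siMETTL3 R1881 library 3. At the same time LIFR had -0.56 ± 0.12 (SE), adjusted p = 0.00514, and was called without siSCR R1881 library 2 or siMETTL3 R1881 library 2. LIFR was the 1 member with a lower value past the adjusted p in both lines with R1881, though past the fold in LNCaP:C4-2 alone, and whether the 2 effects differ was not tested.

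Whether METTL3 depletion changed the response to R1881 itself was tested by the interaction. With siMETTL3, R1881 raised 32 of 42 members in LNCaP:C4-2, where 5.09% of all genes were called higher and 5.54% lower, with a median of 1.64. In 22Rv1 with siMETTL3, 12 of 40 members were called higher and 2 lower (ADAMTS1 and ZMIZ1), where 4.18% were called higher and 9.29% lower, with a median of 0.37. Called with both pools were 31 members in LNCaP:C4-2, and 11 higher and 1 lower in 22Rv1. The share of all genes called with both pools is not reported here. APPBP2, EAF2, PDLIM5, SEC24D and TPD52 were called with siSCR alone in LNCaP:C4-2, and DBI with siMETTL3 alone. In 22Rv1, EAF2, HERC3 and SEC24D were called higher with siSCR alone. UAP1 was called higher and ZMIZ1 lower there with siMETTL3 alone.

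The interaction was called for 0 members in either line by edgeR with the filter on low counts. Over all genes, 0% were called in LNCaP:C4-2 and 0.0168% in 22Rv1. At an unadjusted p under 0.05 there were 13 of 42 members in LNCaP:C4-2 and 4 of 40 in 22Rv1. Of the 62 other androgen-response genes, described below, 21 and 4 were. The share of all genes at that p is not reported here, so these counts have no background. DESeq2 called 4 in LNCaP:C4-2 (HOMER2, LIFR, MERTK and NDRG1, all with the smaller response under siMETTL3) and 0 in 22Rv1. Over all genes DESeq2 called 57 in LNCaP:C4-2 and 4 in 22Rv1, where the main fit called 0 and 3. The edgeR fit with no filter on low counts called 6 in LNCaP:C4-2 (ABHD2, LIFR, MERTK, NDRG1, SEC24D and TPD52). In LNCaP:C4-2, 34 of 42 values lay below 0, where 49.8% of all genes did, with a median of -0.21, and in 22Rv1 30 of 40 did, where 51.1% of all genes did, with a median of -0.10. The lean was not particular to the members. Of 62 other androgen-response genes, described below, 48 lay below 0 in LNCaP:C4-2 and 44 in 22Rv1, with medians of -0.24 and -0.09. NDRG1 had the lowest value in LNCaP:C4-2, -1.04 ± 0.26 (adjusted p = 0.281), with an interval of -1.65 to -0.44. LIFR had -0.90 ± 0.20 (adjusted p = 0.235) and MERTK -0.69 ± 0.15 (adjusted p = 0.235). For both, siMETTL3 vehicle library 1, whose mitochondrial share stood apart, was the highest of its group. LIFR was at 54.6 CPM there against 39.6 and 33.9 CPM, and MERTK at 26.5 against 21.7 and 20.1 CPM. FKBP5, at -0.05 ± 0.13 with an interval of -0.35 to 0.24, and RHOU, at -0.02 ± 0.14 with an interval of -0.35 to 0.30, were 2 of the members with values nearer 0. The siRNA comparisons share their control libraries, so these values are not independent of each other.

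**Figure D5:**
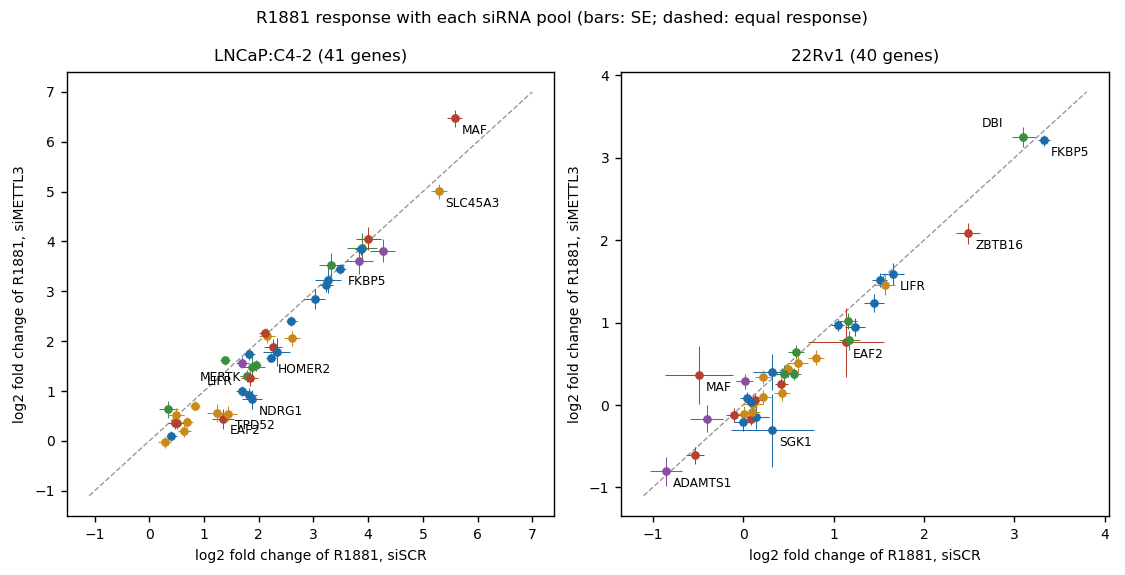
Log2 fold change of R1881 against vehicle with siSCR (horizontal axis) and siMETTL3 (vertical axis) in LNCaP:C4-2 (left, 41 genes, without ORM1, which was at the floor with vehicle) and 22Rv1 (right, 40 genes), with bars of 1 SE, colours by role as in the plot of both lines, and the dashed line at an equal response. Most points lie close to the line in both lines, and in LNCaP:C4-2 NDRG1, LIFR, MERTK, EAF2 and TPD52 lie below it and MAF above.

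A further list of 62 androgen-response genes, none of them among the 42, was written by hand from general knowledge and read in the same fits. It too was chosen with earlier results of these data known. In LNCaP:C4-2 siSCR cells 38 were called higher and 0 lower, where 7.39% and 7.72% of all genes were. With siMETTL3 the counts were 30 and 0, where 5.09% and 5.54% of all genes were called. In 22Rv1 siSCR cells 13 were called higher and 2 lower, where 4.19% and 9.64% of all genes were. With siMETTL3 the counts were 15 and 1, where 4.18% and 9.29% of all genes were called. For 31 of the 62 the response differed between lines with siSCR, where 16.8% of all genes did. Of these, 30 had the smaller response in 22Rv1 and 1 the larger, where 9.02% and 7.78% of all genes did. Among the largest of those called in LNCaP:C4-2 were STEAP4, a metalloreductase, which was at the floor with vehicle and rose by at least 16.7-fold, and AKAP12, a scaffold of protein kinase A, at 6.64 on the log2 scale. In 22Rv1 these had 2.76 and 4.40, both called. Both responses were smaller in 22Rv1, by -2.24 ± 0.20 (SE), adjusted p = 3.75e-09 in edgeR for AKAP12. For STEAP4 the difference was -5.90 ± 1.47 (SE), adjusted p = 0.00643, a size that rests on the floor in LNCaP:C4-2. The smallest called were MYL12A (0.59), NGLY1 (0.67) and LMAN1 (0.74), and in 22Rv1 MYL12A was called at 0.80. NGLY1 (0.26) and LMAN1 (0.31) were under the fold required in 22Rv1.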

How the data were processed

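RNA-seq was analysed from 24 libraries of LNCaP:C4-2 and 22Rv1 cells, 3 per line, siRNA pool and treatment. Per the labels and the file headers, adapters were trimmed by the authors (Trim Galore), reads were mapped on GRCh38 (STAR), and fragments were assigned to Ensembl release 83 genes by featureCounts 1.5.0. No strand option was set. The deposited values are raw counts per gene and library, without normalization, and 56558 of 60675 genes were named. Libraries treated with STM2457 were not analysed here.

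Counts were fitted with edgeR 4.0.16 in R 4.3.3 (TMM, filterByExpr with a count minimum of 10 and a total of 15, glmQLFit, glmQLFTest, Benjamini-Hochberg adjustment over all genes tested). Lines were fitted separately (16435 and 17865 genes, 8 residual degrees of freedom) and, for differences between lines, together (19437 genes, 16). The SE of a log2 fold change was its size over the root of the F statistic, and 95% intervals used the t distribution on the residual degrees of freedom. Floors and intervals of counts cover counting error only. Scripts were tested on simulated data. Alternatives were DESeq2 1.42.0, RLE factors, library size alone, no filter, the replicate number as a block, no fold-change threshold and leaving out each library. The text names every member, METTL3, a few receptor and marker genes, and the 3 largest and 3 smallest changes of 62 other androgen-response genes, though some results that the rule would name are not reported here. The members, lists and tests were chosen with earlier results of these data known. Tables were joined in Python 3.11.15 with pandas 2.3.3, numpy 2.4.6 and scipy 1.17.1, and figures drawn with matplotlib 3.10.9.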

Additional observations from a re-analysis of the deposited data

Results flagged for a closer look

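The response to R1881 with siSCR differed between the lines, by the test of the difference itself in edgeR, for 33 of the 42 genes. Values are log2 differences, 22Rv1 minus LNCaP:C4-2. Among signalling genes they were -3.78 for RHOU, -2.94 for SGK1, -2.88 for BMPR1B, -2.01 for MAK, -1.88 for NDRG1, -1.79 for CAMKK2, -1.72 for PMEPA1, -1.18 for HOMER2, -1.15 for STK39 and -0.46 for MERTK. Among nuclear proteins they were -6.07 for MAF, -2.22 for CENPN, -2.13 for ELL2, -1.51 for ZBTB16, -1.41 for ZBTB10 and -1.01 for ZMIZ1. Among metabolic genes they were -2.73 for HPGD, -2.15 for INPP4B, -1.94 for ALDH1A3, -1.36 for UAP1, -1.21 for ABHD2 and -0.93 for SORD. ALDH1A3 passed the filter on low counts through LNCaP:C4-2 alone. Among secreted proteins and membrane proteases they were -4.67 for TMPRSS2, -3.82 for AZGP1 and -2.55 for ADAMTS1. Among transport genes they were -3.72 for SLC45A3, -2.05 for ABCC4, -2.00 for HERC3, -1.01 for TPD52, -0.69 for APPBP2, -0.54 for PDLIM5 and -0.34 for RAB4A. DBI, at 2.75, was the one gene of these 33 with the larger response in 22Rv1.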

How the results depend on the processing

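The counts of members called for R1881 in LNCaP:C4-2 and for differences between lines stayed within 1.5 times under every alternative, with 35 to 38 called for R1881 with siSCR and 31 to 34 for the difference in response with siSCR when single libraries were left out. Without a fold-change threshold, 24 (siSCR) and 23 (siMETTL3) members were called for R1881 in 22Rv1, 5 for siMETTL3 in LNCaP:C4-2 with R1881 and 10 in 22Rv1 with R1881. For siMETTL3 in LNCaP:C4-2, DESeq2 and the fit with no filter on low counts each called 4 members with vehicle and 6 with R1881, and leaving out single libraries gave 0 to 3 and 0 to 7. Over all genes DESeq2 called 381 with vehicle and 516 with R1881, where the main fit called 197 and 115. All-gene counts without the filter or with a library left out are not reported here. In 22Rv1 DESeq2 and the fit with no filter each called 1 with vehicle. With R1881 these, RLE factors and library size alone called 2 each. Leaving out single libraries gave 0 to 2 with vehicle and 1 to 2 with R1881. Over all genes in 22Rv1, DESeq2 called 43 with vehicle and 514 with R1881, where the main fit called 36 and 587. For the interaction in LNCaP:C4-2, DESeq2 called 4 members and the fit with no filter 6. DESeq2 called 57 of all genes there, and the main fit 0. The METTL3 log2 fold change in LNCaP:C4-2 ranged from -0.66 to -0.55 with vehicle and from -0.65, without siSCR R1881 library 1, to -0.52 with R1881. Changes of sign were limited to uncalled values near 0. In 22Rv1 with siSCR, library size alone gave -0.0520 for APPBP2, -0.0428 for AZGP1 and -0.0226 for CAMKK2, and the fit with no filter put APPBP2 at -0.0. Leaving out single libraries gave -0.0406 to 0.101 for APPBP2, -0.0713 to 0.0706 for AZGP1, -0.0090 to 0.248 for BMPR1B, -0.0495 to 0.0511 for NDRG1 and -0.0360 to 0.543 for SGK1, and for GNAI3 a difference between lines of -0.0001 to 0.156. The cause of these changes was not tested.

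In fits that took the replicate number as a block, LNCaP:C4-2 siMETTL3 counts were 3 with vehicle and 2 with R1881, where MAK was lost (adjusted p = 0.0931), and NDRG1 in 22Rv1 turned to 0.0031. The R1881 counts were unchanged at 36 and 32 in LNCaP:C4-2 and at 15 and 14 in 22Rv1. The labels do not say whether same-numbered libraries share a culture or day. Correlations of same-numbered deviations ran from -0.337 to 0.195 in LNCaP:C4-2, where 6 of 18 pairs were over 0.1. In 22Rv1 they ran from -0.228 to 0.152, with 1 of 18 over 0.1. These values did not show pairing, and with 3 libraries per group they cannot exclude it.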
